A study of Schizosaccharomyces pombe with 20 samples.

Results

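The genes described here lie on 8 stretches of fission yeast chromosome 2, nearly all at its ends, and were read with exon probes that report total transcript level. The members were all exon probes whose gene identifier begins with SPBC1348, SPBPB10D8, SPBPB21E7, SPBPB7E8, SPBPB8B6, SPBC359, SPBPB2B2 or SPBCPT2R1, which gave 71 genes of the 5095 that have an exon probe. Of these, 64 had an entry in the RefSeq gene table of assembly ASM294v3, which placed SPBC1348, SPBPB10D8, SPBPB21E7, SPBPB8B6 and SPBC359 at the left end (40 members) and SPBPB2B2 and SPBCPT2R1 at the right end (28 members). The 7 members with no entry were placed with their stretch. The 3 members of SPBPB7E8 did not meet the description: SPBPB7E8.01 and SPBPB7E8.02 stood 429 and 428 genes from the nearer end, and the 3 are treated as internal. The annotation called 7 members pseudogenes, and 23 had a gene symbol.

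Subtelomeres are the regions next to the chromosome ends, and in Schizosaccharomyces pombe they are packed into heterochromatin, in which histone H3 is methylated and bound by the protein Swi6. Genes there are known to be transcribed weakly in growing cells and to be rich in copies of one another, in transporters and in enzymes of carbon, nitrogen and surface metabolism. The best known is tlh2, a telomere-linked helicase gene of the RecQ type that lies beside the telomere and has a close copy, tlh1, on chromosome 1.

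The study asked how the loss of nonessential genes affects splicing, and used 2-colour arrays with probes in exons, introns and exon-exon junctions. Each of the 12 strains was a haploid Bioneer deletion strain in which a KanR cassette replaced 1 gene, and its Cy3-labelled cDNA was hybridised against Cy5-labelled cDNA of the wild-type strain ED666, so every value is a log2 ratio with the wild type as denominator. The deletions were of aar2, smd3 and pwi1, which encode splicing factors, of SPCC162.01c, a putative splicing factor gene, of ctr1, SPAC18G6.13 and SPAC20H4.06c, whose products are known from purifications of nuclear RNA silencing complexes, of ppn1 and ssu72, which act in 3′ end processing, of ash2 and swd1, which encode subunits of the Set1 histone methyltransferase complex, and of pht1, which encodes the histone variant H2A.Z. All strains grew in 25 ml of YES medium to an optical density of 0.5, and the labels call replicates separately grown. Of the strains, 8 had a pair of arrays, and ash2, pht1, swd1 and SPCC162.01c had 1 array each, which was a replicate 1 array in all 4. Each strain is 1 isolate of the deletion collection, so the deletion cannot be told apart from other differences between that isolate and the wild type.

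The deleted gene's own exon probe checks the labels. It read below every array of the other strains in 8 strains, from -1.19 in pht1 to -6.45 in aar2, and it did not in ctr1, smd3, SPAC18G6.13 and SPCC162.01c. The pht1 label passed narrowly on its 1 array, since the probe read as low as -0.86 on an array of another strain. In ctr1 it was low on replicate 1 (-4.71) and within the range of other strains on replicate 2 (-0.86). It read -0.50 and -0.93 on the arrays labelled smd3, -0.41 and -0.26 on those labelled SPAC18G6.13, and 0.59 on the array labelled SPCC162.01c, so all values for these strains stand under their labels alone, and counts of calls are also given without these 5 arrays and ctr1 replicate 2. The array labelled smd3 replicate 1 stood apart from the rest: over all exon probes its Pearson correlation with the 19 other arrays ran from -0.27 to 0.079, against a median of 0.49 over all 190 pairs of arrays, which share the wild-type reference. Its own replicate 2 was no closer to it than 0.079. Strain background also differed from the wild type. The marker ura4 ranged from -6.57 in ctr1 to -3.47 in pwi1 as a strain mean, and the mating type gene mat1-Mc from -5.03 in ctr1 to -2.04 in smd3. The part of these background differences in the members' values was not tested, and because all 20 arrays share the wild-type strain, a gene whose level differs in the wild type moves on every array.

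The members were higher in the deletion strains than in the wild type more often than other genes were. Between 47 and 68 members had a value on an array, 33 had a value on all 20 arrays, 27 on 10 to 19 and 11 on 1 to 9. Of the 60 members with 10 or more values, 49 had a median above 0 (81.7%), against 50.3% of the 4828 exon probes measured as often. A ratio above 1, that is more than a doubling, was reached on at least 1 array by 41 members, and on 10 or more arrays by 12, while 23 members read below -1 on at least 1 array. The values also ranged more widely than elsewhere: the members on all 20 arrays spanned a median of 2.33 between their lowest and highest array, against 1.04 for all such exon probes, and 31 of the 33 lay above that figure.

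**Figure D1:**
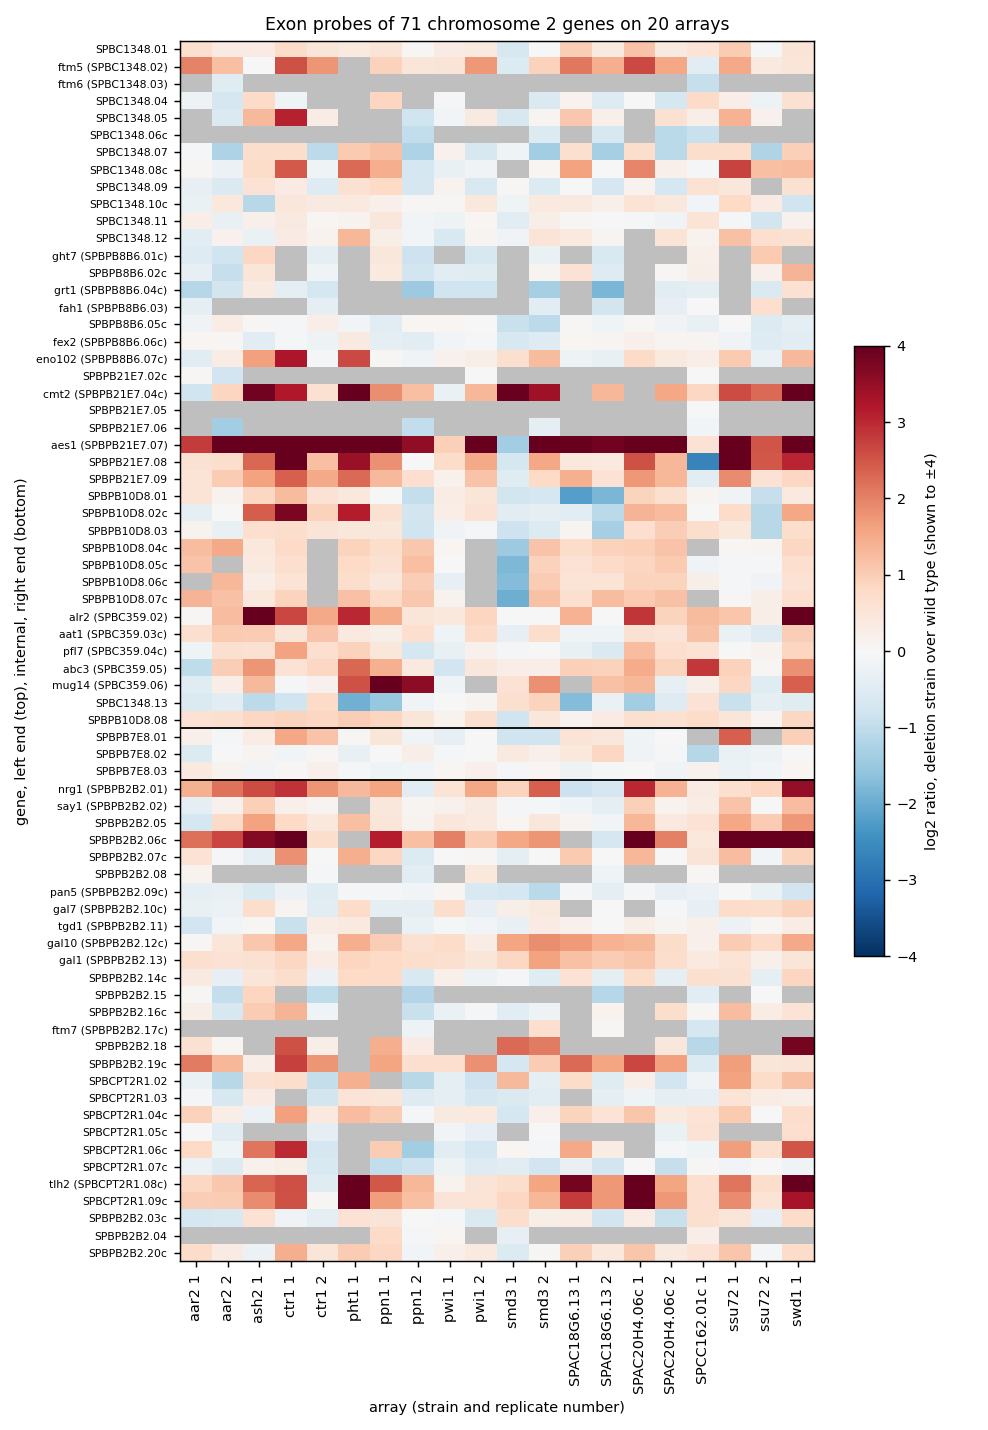
Log2 ratio (deletion strain over wild type) for each of the 71 members (vertical axis, left end at the top, then SPBPB7E8, then right end, in gene order with members that have no annotated position last in their block) on each of the 20 arrays (horizontal axis). Red marks higher and blue lower in the deletion strain, the colour scale ends at 4 in either direction, and grey marks the absence of a value. Red lies mainly in SPBPB21E7, SPBC359 and parts of SPBPB2B2 and SPBCPT2R1.

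The stretches differed. Each stretch was summarised by the median of its members' medians, over members with 10 or more values. SPBPB21E7 stood highest (1.56, from 4 of its 7 members), followed by SPBC359 (0.70), SPBPB10D8 (0.59), SPBPB2B2 (0.37), SPBC1348 (0.18) and SPBCPT2R1 (0.18). SPBPB7E8 (0.0085) and SPBPB8B6 (-0.089) lay near the level of the wild type. Within SPBPB2B2 these member medians ran from -0.29 to 2.11, so neighbouring genes were not alike. Over members with 10 or more values, the 2 ends had similar medians of 0.33 at the left and 0.28 at the right. SPBPB21E7.02c, SPBPB21E7.05 and SPBPB21E7.06, left out for having fewer values, had medians of 0.017, -0.014 and -0.69.

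**Figure D2:**
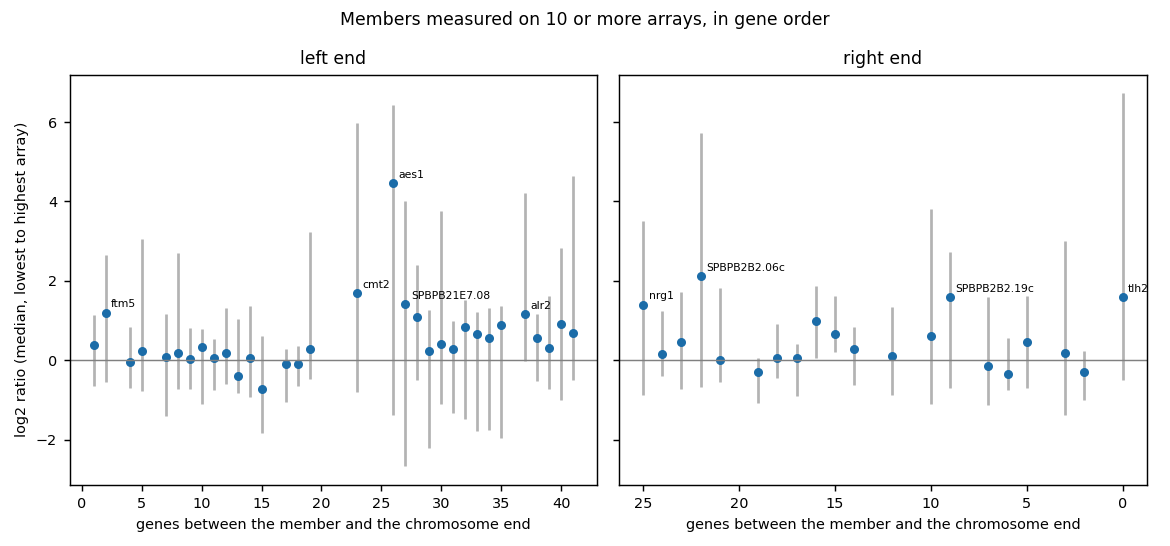
Median log2 ratio over the arrays (dots) and the lowest and highest array (lines) for the members with a position in the gene table and 10 or more values, by their number of genes from the nearer chromosome end. High medians and long lines occur beside the telomere at tlh2 and again further in, at aes1 (median 4.45), which had 26 genes between it and the left end.

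Among individual members, the telomere-linked helicase gene tlh2, the outermost annotated gene of the right end, read above the wild type on 19 of the 20 arrays. In the strains with a single array it read 6.73 in pht1, 3.98 in swd1, 2.31 in ash2 and 0.66 in SPCC162.01c. In the strains with a pair, given here and below as replicate 1 and replicate 2, it read 5.91 and 1.58 in SPAC20H4.06c, 3.82 and 1.72 in SPAC18G6.13, 2.59 and -0.49 in ctr1, 2.48 and 1.31 in ppn1, and 2.14 and 0.70 in ssu72. It read 0.82 and 1.07 in aar2, 0.14 and 0.50 in pwi1, and 0.71 and 1.59 in smd3. The exception was ctr1 replicate 2, the level was highest in pht1, and replicate 1 stood well above replicate 2 in 5 of the 8 pairs. Against wild type, limma called it higher in pht1 alone (6.73, SE 1.26, adjusted p = 0.017), with the spread of that single array taken from the strains with pairs. In SPAC20H4.06c the strain mean of 3.75 had an adjusted p of 0.11, which became 0.044 without the 6 arrays of doubtful label. Over the 20 arrays the copy on chromosome 1, tlh1, ranged from -0.18 to 6.42 with a median of 1.82 and differed from tlh2 by a median of 0.36 and by at most 1.85, and these near-copies may share their signal.

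The member most like tlh2 over the 12 strain means was SPBCPT2R1.09c (Pearson r = 0.99), followed by SPBC1348.12 (0.73) and cmt2 (0.73). These are descriptions over strains that share the wild-type reference. SPBCPT2R1.09c, which has no entry in the gene table, read 4.50 in pht1, 3.30 in swd1, 1.90 in ash2 and 0.66 in SPCC162.01c. Its pairs were 4.41 and 1.74 in SPAC20H4.06c, 2.79 and 1.75 in SPAC18G6.13, 2.53 and 0.052 in ctr1, 1.67 and 1.22 in ppn1, 1.89 and 0.56 in ssu72, 0.97 and 1.02 in aar2, 0.53 and 0.55 in pwi1, and 0.83 and 1.33 in smd3. The order of its strains was close to that of tlh2 at a smaller scale, and it too was called higher in pht1 (adjusted p = 0.018). SPBC1348.12 was called higher in pht1 at 1.32.

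The SPBPB21E7 stretch at the left end held the highest member of all, aes1, which was named for enhancing silencing by antisense RNA. Single arrays read 6.44 in swd1, 5.80 in pht1, 5.03 in ash2 and 0.57 in SPCC162.01c. Pairs read 5.43 and 5.18 in ctr1, 5.87 and 4.35 in SPAC20H4.06c, 4.62 and 3.86 in SPAC18G6.13, 4.63 and 3.55 in ppn1, 4.31 and 2.53 in ssu72, 2.80 and 4.26 in aar2, 0.96 and 4.69 in pwi1, and -1.38 and 4.56 in smd3. It was above 2 on 17 of the 20 arrays, the exceptions being SPCC162.01c and the first arrays of pwi1 and smd3. Without the 6 arrays of doubtful label, aes1 was called higher in aar2, ppn1 and SPAC20H4.06c among the strains that kept a pair. It was not called in pwi1 or ssu72. With all arrays, the call against wild type passed only in ctr1 (5.31, SE 1.12, adjusted p = 0.034), which had the highest mean of the strains with a pair. In swd1 (6.44) and pht1 (5.80) the adjusted p was 0.056 and 0.063.

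In the same stretch cmt2, of the catechol O-methyltransferase family, was called higher in 3 strains. It read 5.96 in pht1, 5.57 in swd1, 3.87 in ash2 and 0.82 in SPCC162.01c. The arrays labelled smd3 read 3.96 and 3.39, those of ssu72 2.60 and 2.27, of ctr1 3.20 and 0.62, of ppn1 1.85 and 1.20, of aar2 -0.79 and 0.87, and of pwi1 -0.25 and 1.32, while SPAC20H4.06c (1.54) and SPAC18G6.13 (1.34) had a value on replicate 2 only. The high arrays were therefore those of the 3 chromatin strains and both labelled smd3. The calls were in pht1 (5.96, SE 0.82, adjusted p = 0.0094), swd1 (5.57, adjusted p = 0.016) and smd3 (3.67, SE 0.58, adjusted p = 0.014).

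The pseudogene SPBPB21E7.08 read 3.46 in pht1, 3.06 in swd1, 2.31 in ash2 and -2.66 in SPCC162.01c. Its pairs were 4.0 and 2.49 in ssu72, 3.98 and 1.20 in ctr1, 2.54 and 1.33 in SPAC20H4.06c, 1.82 and 0.019 in ppn1, 0.75 and 1.5 in pwi1, 0.60 and 0.72 in aar2, 0.42 and 0.38 in SPAC18G6.13, and -0.72 and 1.55 in smd3. It was called higher in ctr1 (2.59) and ssu72 (3.25, SE 0.66, adjusted p = 0.048). The first arrays of these strains were the highest of all, and the array labelled SPCC162.01c was the lowest.

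SPBPB21E7.09, which encodes an L-asparaginase, read 2.26 in pht1, 1.60 in ash2, 0.84 in swd1 and -0.41 in SPCC162.01c. Its pairs read 2.40 and 1.53 in ctr1, 1.75 and 1.33 in SPAC20H4.06c, 1.88 and 0.59 in ssu72, 1.41 and 0.57 in SPAC18G6.13, 1.31 and 0.68 in ppn1, 0.56 and 1.0 in aar2, 0.18 and 1.15 in pwi1, and -0.49 and 0.79 in smd3. This enzyme gene was called higher in ctr1 (1.96) and pht1 (2.26). Of the other 3 members of the stretch, SPBPB21E7.02c, SPBPB21E7.05 and SPBPB21E7.06 had values on 4, 1 and 4 arrays.

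SPBC359, the innermost stretch of the left end, includes genes for amino acid and surface functions. Its member alr2 encodes an alanine racemase and was called higher in 4 strains, the most of any member. It read 4.22 in swd1, 4.19 in ash2, 3.02 in pht1 and 1.27 in SPCC162.01c. Pairs were 2.66 and 1.51 in ctr1, 2.86 and 0.90 in SPAC20H4.06c, 1.40 and -0.0096 in SPAC18G6.13, 1.48 and 0.48 in ppn1, 1.11 and 0.26 in ssu72, 0.062 and 1.22 in aar2, 0.42 and 0.86 in pwi1, and 0.0072 and -0.025 in smd3. The 3 chromatin strains lay above all 17 other arrays. The called strains were ash2 (4.19, SE 0.68, adjusted p = 0.030), swd1 (4.22, SE 0.68, adjusted p = 0.016), pht1 (3.02) and ctr1 (2.08).

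In the same stretch mug14, a gene upregulated in meiosis, was highest in ppn1. The ppn1 arrays read 4.65 and 3.59, pht1 2.55, swd1 2.39, ash2 1.29 and SPCC162.01c 0.24. Remaining arrays read 0.57 and 1.84 in smd3, 1.34 and -0.31 in SPAC20H4.06c, 0.82 and -0.49 in ssu72, -0.036 and 0.19 in ctr1, -0.50 and 0.25 in aar2, -0.17 on pwi1 replicate 1 and 1.18 on SPAC18G6.13 replicate 2. Both ppn1 arrays lay above all other arrays. The gene was called higher in ppn1 against wild type (4.12, SE 0.46, adjusted p = 0.0019) and against the mean of the other strains (3.27, SE 0.49, adjusted p = 0.040). The flocculin-like surface protein gene pfl7 was called higher in ctr1 at 1.14.

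The galactose genes of the right end, gal1 (galactokinase), gal10 (UDP-glucose 4-epimerase) and gal7 (galactose-1-phosphate uridylyltransferase), encode the steps that turn galactose into a glycolytic sugar. For gal10 the single arrays read 1.53 in swd1, 1.46 in pht1, 1.09 in ash2 and 0.20 in SPCC162.01c. Its pairs were 1.59 and 1.86 in smd3, 1.72 and 1.40 in SPAC18G6.13, 1.55 and 0.15 in ctr1, 1.32 and 0.72 in SPAC20H4.06c, 0.99 and 0.61 in ppn1, 1.01 and 0.75 in ssu72, 0.74 and 0.29 in pwi1, and 0.055 and 0.47 in aar2. All 20 arrays were above 0, and the highest pairs were those labelled smd3 and SPAC18G6.13. gal10 was called higher under those labels only (smd3 1.73, SE 0.27, adjusted p = 0.011, and SPAC18G6.13 1.56, SE 0.27, adjusted p = 0.021).

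Values for gal1 lay closer together. It read 0.87 in pht1, 0.61 in ash2, 0.50 in swd1, 0.40 in SPCC162.01c, 0.84 and 1.61 in smd3, 1.16 and 1.02 in SPAC18G6.13, 1.11 and 0.70 in SPAC20H4.06c, 0.83 and 0.31 in ctr1, 0.79 and 0.69 in ppn1, 0.63 and 0.57 in aar2, 0.63 and 0.48 in pwi1, and 0.55 and 0.21 in ssu72. Again no array was below 0, and with all arrays the calls were in smd3 (1.23, SE 0.19, adjusted p = 0.0085) and SPAC18G6.13 (1.09, SE 0.19, adjusted p = 0.018). Without the 6 arrays of doubtful label, gal1 was called higher in aar2, ppn1 and SPAC20H4.06c among the strains that kept a pair. It was not called in pwi1 or ssu72. gal7 was lower and mixed in sign, with 0.91 in swd1, 0.74 in pht1, 0.70 in ash2, -0.33 in SPCC162.01c, 0.75 and 0.69 in ssu72, 0.71 and -0.34 in pwi1, 0.23 and 0.38 in smd3, 0.12 and -0.44 in ctr1, -0.28 and -0.24 in aar2, and -0.35 and -0.40 in ppn1. Only replicate 2 gave a value for it in SPAC18G6.13 (0.022) and SPAC20H4.06c (-0.045), and no strain passed the test. The 3 genes of the pathway were thus unequal: gal1 and gal10 were above the wild type on every array and gal7 was not.

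**Figure D3:**
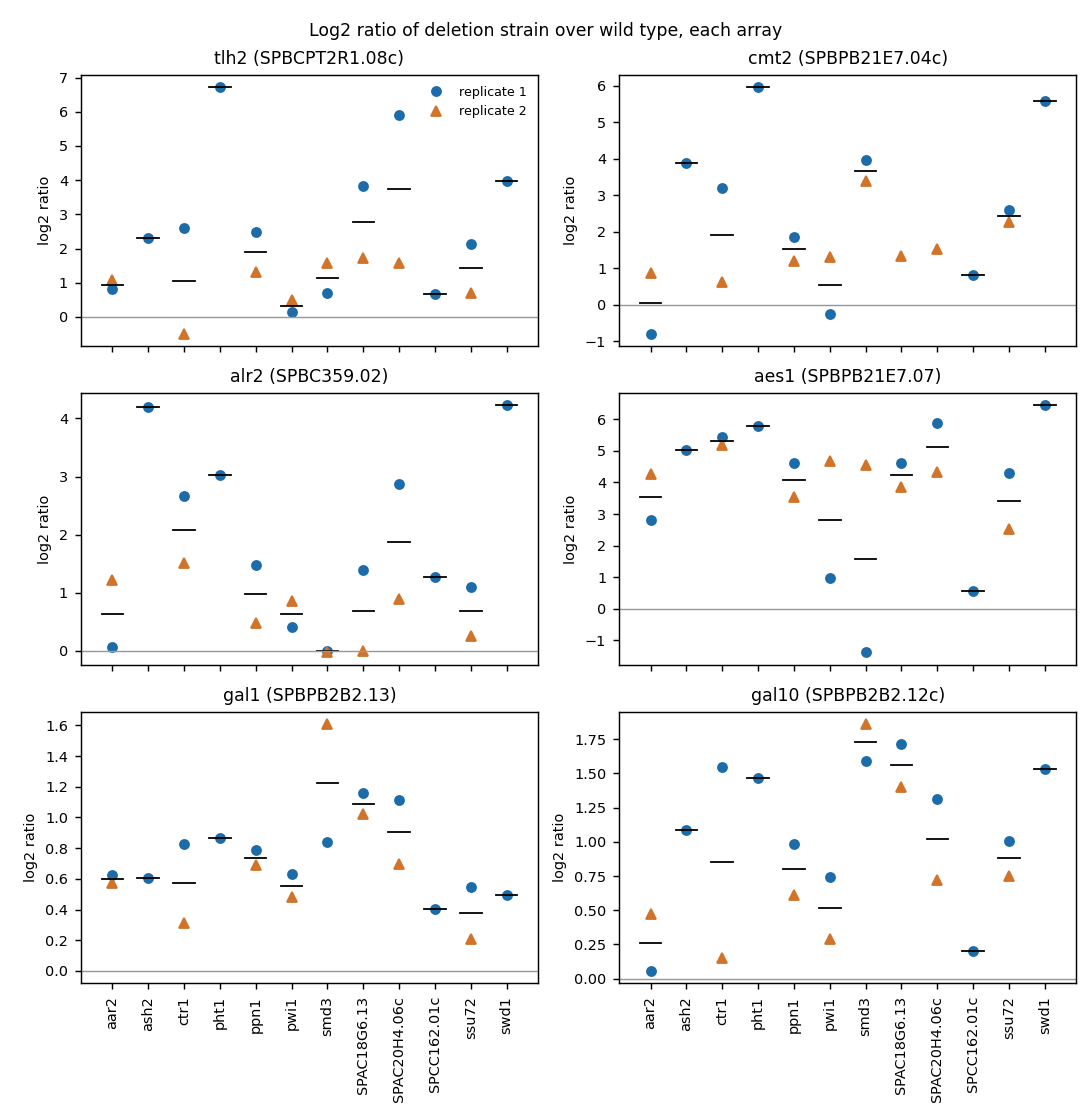
Log2 ratio of the deletion strain to wild type (vertical axis) on every array of the 12 strains (horizontal axis) for tlh2, cmt2, alr2, aes1, gal1 and gal10. Circles are replicate 1 arrays, triangles replicate 2 arrays and lines the strain mean where all its arrays had a value. tlh2 reaches 6.73 in pht1, and the alr2 values of pht1, swd1 and ash2 lie above those of all other strains.

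Elsewhere at the right end, nrg1, a predicted amino acid transporter gene, read 3.50 in swd1, 2.61 in ash2, 1.29 in pht1 and 0.32 in SPCC162.01c. Its pairs were 2.89 and 1.76 in ctr1, 3.03 and 1.38 in SPAC20H4.06c, 1.43 and 2.17 in aar2, 0.89 and 2.39 in smd3, 0.55 and 1.53 in pwi1, 0.66 and 0.87 in ssu72, 1.58 and -0.41 in ppn1, and -0.87 and -0.67 in SPAC18G6.13. Both SPAC18G6.13 arrays were thus among the 3 below wild type. The transporter gene was called higher in swd1 (3.50) and ctr1 (2.32). SPBPB2B2.06c was the highest member of ssu72, where it read 5.39 and 4.13 (mean 4.76, SE 0.91, adjusted p = 0.043), and SPBPB2B2.18 was called only in swd1, at 3.81, although the arrays labelled smd3 read 2.27 and 2.08.

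SPBPB10D8.02c, which encodes an arylsulfatase, was the member of SPBPB10D8 with the widest range. It read 3.13 in pht1, 2.43 in ash2, 1.56 in swd1 and 0.019 in SPCC162.01c. Pairs read 3.76 and 0.93 in ctr1, 1.37 and 1.26 in SPAC20H4.06c, 0.60 and -0.72 in ppn1, 0.75 and -1.10 in ssu72, 0.28 and 0.56 in pwi1, -0.38 and 0.005 in aar2, -0.44 and -0.39 in smd3, and -0.43 and -1.09 in SPAC18G6.13. Values above 1 occurred in ctr1, SPAC20H4.06c and the 3 chromatin strains only, and the calls were in pht1 (3.13) and ctr1 (2.34). Its neighbour SPBPB10D8.01, a cysteine transporter gene, was lower still in the arrays labelled SPAC18G6.13. There it read -2.20 and -1.82, against a lowest value of -0.96 on any other array, and it was called lower against wild type (-2.01, SE 0.24, adjusted p = 0.0033) and against the mean of the other strains (-2.23, SE 0.26, adjusted p = 0.0037).

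SPBPB8B6 held no member called higher. The fluoride exporter gene fex2 read -0.66 and -0.51 in the arrays labelled smd3 and was called lower there (-0.58). SPBPB8B6.05c, an L-asparaginase gene, read -0.88 and -1.04 on the same arrays and was also called lower (-0.96). In that strain pan5 of the right end, a ketopantoate reductase gene, read -0.72 and -1.07 and was called lower (-0.90), and so was SPBPB7E8.01 (-0.81 and -0.79, mean -0.80). The internal member SPBPB7E8.01 was called in the other direction in ctr1, where it read 1.55 and 1.14 (mean 1.34, SE 0.17, adjusted p = 0.0045). Its highest value was 2.38 on ssu72 replicate 1, a strain left untested because replicate 2 had no value. Its neighbour SPBPB7E8.02 was called lower in the array labelled SPCC162.01c (-1.15, SE 0.21, adjusted p = 0.042), and the 19 other arrays lay between -0.54 and 0.84.

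Other members have a gene name but were called in fewer comparisons. abc3, a vacuolar ABC transporter gene of SPBC359, ranged from -1.0 to 2.82 with a median of 0.91, and the enolase gene eno102 of SPBPB8B6 from -0.46 to 3.24 with a median of 0.28. Neither was called against wild type in a strain, and both were higher in the mean of all strains (1.09 and 0.76). The hexose transporter gene ght7 (median -0.39 over 11 arrays) and the transcription factor gene grt1 (median -0.72 over 14 arrays) of SPBPB8B6 had medians below the wild type, and neither was called. The 11 members with under 10 values, among them ftm6, ftm7 and fah1, had medians from -0.88 to 0.091, and none was called.

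Several members read almost alike, and no sequences were compared here. A small median difference alone does not mark copies, since tgd1 and fex2 differed by 0.14 with a Pearson r of 0.032. ftm5 at the left end and SPBPB2B2.19c at the right end differed by a median of 0.14 over 19 arrays (r = 0.99). Both were called higher in ctr1 (2.15 and 2.25). SPBC1348.01, SPBCPT2R1.04c and SPBPB2B2.20c, from both ends, differed by medians of 0.060 to 0.082 over 20 arrays (r from 0.81 to 0.98). SPBPB10D8.04c and SPBPB10D8.07c differed by a median of 0.072 over 17 arrays (r = 0.97). A count of such members is a count of probes that may share targets, which was not tested.

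The replicate number moved with the members' level in most strains. Of members measured on both arrays, replicate 1 was the higher in 86% in SPAC20H4.06c, 84.6% in ctr1, 81.8% in ppn1, 81.5% in ssu72 and 78.4% in SPAC18G6.13, where 43.2% to 57.4% of all exon probes were. The opposite was seen in smd3 (27.3%) and pwi1 (34%), and aar2 was even (50%). The median difference of replicate 1 minus replicate 2 over members was largest in ctr1 (0.81) and ssu72 (0.80). For 50 of 60 members the highest value of all was on a replicate 1 array, and 12 of the 20 arrays were replicate 1. SPBC1348.07 read a median of 0.70 on replicate 1 arrays and -1.21 on replicate 2 arrays. The sources used here do not say what the replicate number stands for. The main fit has no replicate term, and counts with a replicate block are given at the end, among the alternatives. The cause of the replicate differences was not tested.

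**Figure D4:**
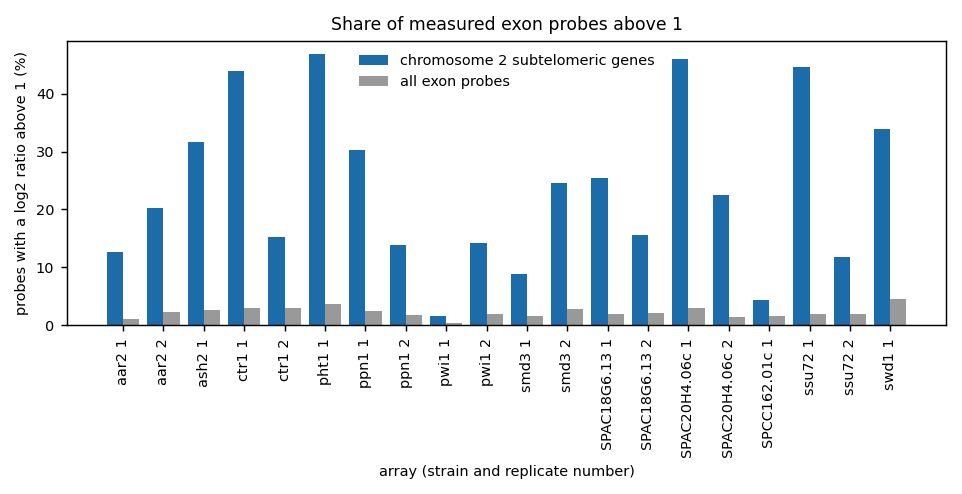
Share of measured exon probes with a log2 ratio above 1 (vertical axis, percent) on each array (horizontal axis), for the chromosome 2 subtelomeric genes and for all exon probes. The members' share runs from 1.67% on pwi1 replicate 1 to 46.8% in pht1, against 0.38% to 4.49% for all probes, and is above that of all probes on every array.

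Counts of calls against wild type were made by limma at an adjusted p under 0.05, with p-values adjusted over all exon probes of a strain. Over the 12 strains, 664 combinations of strain and member were tested, of which 30 were called higher (4.52%, against 0.941% of all exon values) and 6 lower (0.904%, against 0.873%). By member, 19 were called higher in at least 1 strain, 6 lower, and 47 in none, with SPBPB7E8.01 in both directions. The share of all exon probes called in at least 1 strain was not taken. Calls in each direction were read against the share of all exon probes called, given in brackets. Here and below, that share was taken for the main fit and without the arrays of doubtful label. It was not taken for the other alternatives or at an unadjusted p, so those counts have no background beside them.

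The strain with the most members called was ctr1, with 10 of 52 higher (2.86%) and none lower (2.02%). The largest were aes1, SPBPB21E7.08 and SPBPB10D8.02c. Without ctr1 replicate 1 none of the 10 was called, and without replicate 2 the count was 16. With trended and robust variance the count was 1, and with probes measured on all 20 arrays it was 5. The removal of the 6 arrays of doubtful label left ctr1 with replicate 1 only, and then gave 17 of 57 higher (1.68%) and none lower (3.01%).

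In pht1, 7 of 47 members were called higher (1.12%) and none lower (2.96%), led by tlh2 (6.73), cmt2 (5.96) and SPBCPT2R1.09c (4.50), and 14 of 47 were higher (2.03%) and 1 lower (3.07%) without the arrays of doubtful label. In swd1, 4 of 59 were called higher (1.65%) and none lower (0.889%), led by cmt2, alr2 and SPBPB2B2.18, and 8 were higher (2.69%) without those arrays. In ash2, 1 of 60 was called higher (0.208%), alr2, and none lower (0.0416%), with 2 higher (0.416%), alr2 and cmt2, without them. The single-array strains had their error set by the strains with pairs, on the assumption that their arrays vary alike.

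In the arrays labelled smd3, 3 of 55 members were called higher (2.22%) and 4 lower (1.66%). Those labelled SPAC18G6.13 had 2 of 51 higher (0.75%) and 1 lower (0.814%), and that labelled SPCC162.01c had 0 of 68 higher (0.226%) and 1 lower (0.246%), with 3 higher and 5 lower at an unadjusted p under 0.05. In ssu72, 2 of 54 were higher (0.425%) and none lower (0.468%), and 3 were higher (0.681%) without the arrays of doubtful label. In ppn1, mug14 was the only call, 1 of 55 higher (1.83%) and none lower (1.46%), a share near the background, but 9 were higher (3.84%) and 1 lower (2.88%) without the doubtful arrays. These included gal1, gal10, aes1 and members of the SPBPB10D8.04c to SPBPB10D8.07c group. Single arrays decided several of these counts. When either array labelled SPAC18G6.13 was left out, no member was called there in either direction. The higher calls of smd3 numbered 6 without replicate 1, the array that stood apart, and 0 without replicate 2, those of ssu72 0 without replicate 1 and 1 without replicate 2, and that of ppn1 was lost without replicate 1. Without smd3 replicate 1, gal1, gal10, SPBPB8B6.05c and pan5 were still called in smd3, and cmt2, SPBPB7E8.01 and fex2 were not.

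No member was called by limma in aar2, pwi1 or SPAC20H4.06c in the main fit, which has no replicate term. With the replicate block, members were called in aar2 and in SPAC20H4.06c, with counts given at the end among the alternatives. In aar2, 0 of 60 were called in either direction (0.0208% higher, 0.0625% lower), with 11 higher and 1 lower at an unadjusted p under 0.05, and 6 were called higher (3.1%) and 1 lower (3.77%) without the doubtful arrays. For pwi1 the count was 0 of 53 (0.0424% and 0.0212%), with 4 higher and 2 lower unadjusted. SPAC20H4.06c had 0 of 50 (0.0651% in each direction), with 23 higher and 1 lower unadjusted and a median member value of 0.74. The share of all exon probes at that unadjusted threshold was not taken for these strains. Without the doubtful arrays, 13 of its 50 members were called higher (1.24%), among them tlh2, aes1, gal1 and gal10.

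**Figure D5:**
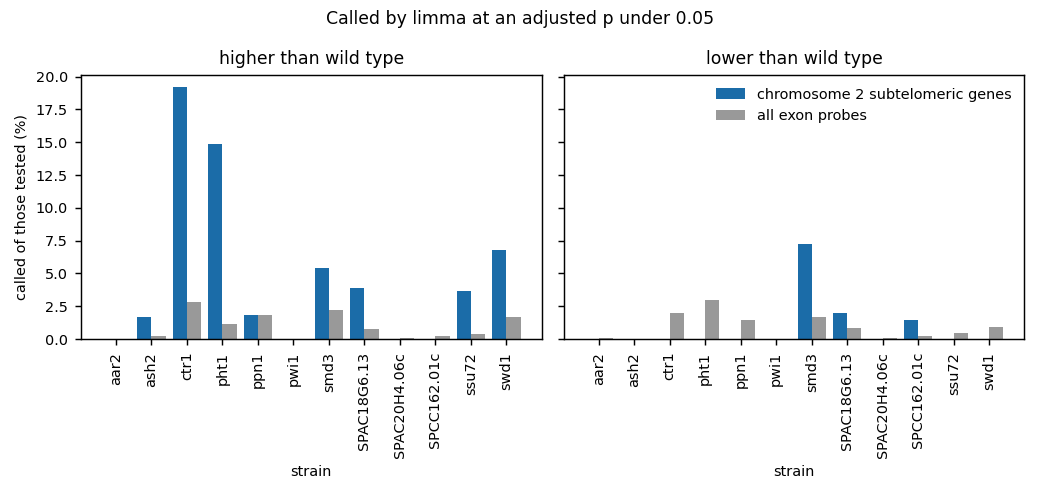
Share of tested exon probes called higher (left panel) and lower (right panel) than wild type by limma at an adjusted p under 0.05 (vertical axis, percent) in each strain (horizontal axis), for the chromosome 2 subtelomeric genes and for all exon probes. The calls are those of the main fit, which has no replicate term. The members' share of higher calls is largest in ctr1 (10 of 52) and pht1 (7 of 47), and no member is called in aar2, pwi1 or SPAC20H4.06c.

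The median over the tested members did not order the strains as the counts of calls did. It was 0.92 in pht1, 0.82 in swd1, 0.76 in ctr1, 0.74 in SPAC20H4.06c, 0.61 in ash2 and 0.45 in ssu72, where the medians of all exon probes lay between -0.038 and 0.015. It was 0.29 in ppn1, 0.24 in SPAC18G6.13, 0.21 in SPCC162.01c, 0.11 in pwi1, 0.038 in aar2 and -0.0088 in smd3. These values share the wild-type reference, and no test was made of the list. They were also taken over different members, 47 in pht1 and 68 in SPCC162.01c. In pht1 66.2% of members had a value, against 86.2% of all exon probes, and the median over arrays was 83.1% against 93.8%.

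Taken over the mean of the 12 strains, 26 of the 44 members with an estimate in every strain were higher than wild type (29.6% of all probes) and 4 were lower (27.4%), with a median of 0.43 against 0.0059 for all. Without the doubtful arrays the counts were 31 of 46 (26.3%) and 2 (25.2%). The largest were aes1 (4.0, SE 0.37), cmt2 (2.43), tlh2 (2.25, SE 0.30), SPBCPT2R1.09c (1.86) and alr2 (1.69), and gal10 (0.99), gal1 (0.70) and gal7 (0.20) were all 3 called higher. The lower members were SPBC1348.13 (-0.50), pan5 (-0.34), SPBPB8B6.05c (-0.17) and fex2 (-0.14). A difference common to the deletion strains cannot be told apart here from one in the wild-type cultures.

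By role, the counts in that mean are read against the 29.6% of all probes that were higher and the 27.4% that were lower. The helicase gene tlh2 and SPBCPT2R1.09c, which read like it, were higher, as were all 3 galactose enzymes. Of 5 tested transporters 3 were higher and 1, fex2, was lower, and of 8 tested genes of other enzymes 5 were higher and 2 were lower. The regulators, surface and meiotic genes, 4 members, had 3 of 3 tested higher, and none of the 3 ftm genes had a value in every strain. The genes grt1 (median -0.72) and ght7 (median -0.39) lacked an estimate in some strain and are not in these counts.

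The loss of Set1 complex subunits or of H2A.Z is known to affect silencing near telomeres, so ash2, swd1 and pht1 were compared with the other 9 strains. Of 44 members, alr2 (2.83, SE 0.43, adjusted p = 0.017) and cmt2 (3.60, SE 0.52, adjusted p = 0.017) were higher by limma (0.331% of all probes) and none was lower (0.922%). At an unadjusted p under 0.05, 17 were higher and 2 lower, a threshold at which the share of all probes was not taken. The median difference was 0.58, against -0.014 for all probes. tlh2 differed by 2.79 (SE 0.79, adjusted p = 0.096), gal7 by 0.78 (adjusted p = 0.082) and aes1 by 2.35 (adjusted p = 0.21). The same 2 members were called without the doubtful arrays (0.353% higher, 0.259% lower), but alr2 was not called without ash2 (adjusted p = 0.052) or swd1 (0.075), nor cmt2 without pht1 (0.068) or swd1 (0.084). Without replicate 2 of SPAC18G6.13 or of SPAC20H4.06c, cmt2 had no value in that strain and could not be tested, which left 1 member called, and without ctr1 replicate 1 there were 4. These 3 strains have replicate 1 arrays only, and with replicate 1 arrays alone the alr2 difference was 2.56 (adjusted p = 0.19), so strain and replicate number cannot be fully told apart here.

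For ctr1, SPAC18G6.13 and SPAC20H4.06c, whose products were found with RNA silencing complexes, the same contrast with the other 9 strains called 0 of 44 members by limma in either direction (0% higher and 0.0236% lower of all probes). At an unadjusted p under 0.05, 4 were higher and 3 lower, with a median difference of 0.086 against 0.030. The tlh2 difference was 0.36 with an SE of 0.62.

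Set against the mean of the other 11 strains, 3 single-strain calls were made among 44 members. These were mug14 in ppn1 (0.0709% of all probes called higher), SPBPB10D8.01 in SPAC18G6.13 (0.0473% lower) and SPBPB7E8.02 in SPCC162.01c (-1.17, SE 0.22, adjusted p = 0.040, with 0.52% lower). All 3 were also called against wild type. In the arrays labelled smd3, limma called 0 of 44 members in either direction (0.0946% of all probes in each), with 4 higher and 13 lower at an unadjusted p under 0.05 and a median difference of -0.55. The calls in ppn1 and SPAC18G6.13 rested on both arrays of the strain, and the count was 0 when either was left out. For tlh2 in pht1 the difference was 4.88 (SE 1.29, adjusted p = 0.12).

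Intron and junction probes read unspliced and spliced transcript. The 15 members with such probes held 14 intron and 19 junction probes, with 63 strain and intron values tested and 113 strain and junction values. The called introns were the 3 of SPBPB2B2.18 in the arrays labelled smd3 (1.76, 1.68 and 1.32), where 50% of all intron probes were called higher. On the same arrays its junctions 1-2 and 2-3 were higher (2.32 and 1.36, against 2.16% of all junction probes) and its exon probe read 2.27 and 2.08, so unspliced, spliced and total transcript were high together. In swd1 the junctions of SPBPB2B2.18 were called at 2.39 and 3.34 (0.0945%), beside the exon value of 3.81. The junctions of SPBC1348.01 (-1.04), SPBCPT2R1.04c (-0.86) and SPBPB2B2.20c (-1.20), which read alike, were lower in smd3, where 20.9% of all junction probes were.

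The 56 chromosome 1 subtelomeric genes gave the nearest comparison. In the mean of all strains 18 of 32 were higher (29.6% of all exon probes) and 3 lower (27.4%), with a median of 0.32. In pht1, 5 of 38 were higher (1.12%, median 1.09), and in ctr1, 4 of 39 (2.86%, median 0.42). In the contrast of ash2, swd1 and pht1 with the other strains 1 of 32 was higher (0.331%) and the median was 0.66. Of 25 genes known to act in silencing or at telomeres and tested in the mean of all strains, 8 were higher and 4 lower, with a median of -0.012, where 29.6% of all exon probes were higher and 27.4% lower. Of 9 stress genes tested in the mean of all strains, 7 were higher and none lower against those same shares, with a median of 0.55. The stress genes were thus higher beside the members, and their part in the members' values was not tested. Of 5 mating type and strain markers tested in that mean, 2 were higher and 3 lower.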

How the data were processed

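Total RNA of 12 deletion strains was compared with wild-type RNA on 20 2-colour arrays. The authors deposited log2 ratios of deletion strain over wild type for 15208 probes. The methods for background, normalisation and empty values were not given in the sources used here. The ratios were used as deposited, without imputation.

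Exon probes were fitted with limma 3.58.1 in R 4.3.3 (lmFit and eBayes), with 1 mean for each strain. A strain with a single array took its error from the pairs. A strain was tested against 0 (the wild type) for probes measured on all of its arrays, and contrasts between strains for probes with an estimate in every strain. Benjamini-Hochberg adjustment ran over all such exon probes, and over intron or junction probes separately, with calls at an adjusted p under 0.05. The fit was tested on simulated data. The number of arrays limits the precision, and probe intensities were not used here.

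The members and gene lists were chosen with earlier results of these data known. Values on all arrays were given for tlh2, gal1, gal7, gal10 and up to 12 members by number of strains called and mean, and up to 3 called members were named in each direction in a strain. fex2, pfl7, ftm5, SPBPB2B2.19c, SPBC1348.07, abc3, eno102, ght7 and grt1 were named after their values were seen. Names and gene order came from RefSeq (ASM294v3), without coordinates, since the probes' build was not given in the sources used here. Alternatives were a replicate block, centring each array, trended and robust variance, probes on all 20 arrays, leaving out each replicate, leaving out the 6 arrays of doubtful label and, chosen after the data were seen, the arrays of 1 replicate number.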

Additional observations from a re-analysis of the deposited data

Results flagged for a closer look

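In ppn1, mug14 stood 3.27 above the mean of the other strains, which the contrast called. SPBPB10D8.01 stood -2.23 from that mean in the arrays labelled SPAC18G6.13, and SPBPB7E8.02 stood -1.17 from it in the array labelled SPCC162.01c, so each of these members differed between a strain and the rest. In ash2, swd1 and pht1 as a group, alr2 stood 2.83 and cmt2 3.60 above the other strains. SPBPB7E8.01 was called against wild type in opposite directions, at 1.34 in ctr1 and -0.80 in the arrays labelled smd3, and the difference between these strains was not itself tested.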

How the results depend on the processing

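Across the alternatives, 370 counts of calls stayed within 1.5 times the reported count and 78 did not. Counts that were 0 in both fits are among the 370, and how many they are was not taken. For single members 1594 values were counted as unchanged, 103 lost their call and 26 gained one. Of the values called in the main fit, 0 changed direction. Values not called there were counted as unchanged even where their direction changed, as for tlh2 in ctr1 without replicate 1. The calls of tlh2, cmt2 and SPBCPT2R1.09c in pht1 and of alr2 in swd1 held in every alternative that tested them. Replicate numbers were not taken as pairs, under a fixed rule that asked for deviations of same-numbered arrays to correlate above 0.1. These correlations ran between 0.036 and 0.78 over the 28 pairs of strains and were 0.1 or below in 2. Their median was 0.31, and none was below 0.036. Over all exon probes, replicate 2 arrays of different strains correlated at a median of 0.79, against 0.61 for the 2 arrays of a strain. Same-numbered arrays thus did deviate together in most pairs of strains. A difference shared by replicate number therefore stays in the error of the main fit, and an absence of calls there does not show an absence of difference.

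With the replicate block, members called higher against wild type numbered 19 in ctr1, 10 in SPAC20H4.06c, 10 in swd1, 8 in SPAC18G6.13, 7 in aar2, 7 in ssu72, 3 in ppn1 and 2 in SPCC162.01c, and members called lower 4 in aar2, 2 in ppn1, 2 in SPAC18G6.13, 1 in pht1 and 1 in swd1. Against the other strains the block gave 1 higher and 1 lower in smd3, and 1 higher and 2 lower in SPCC162.01c. With trended and robust variance the higher calls against wild type were 1 in ctr1, 1 in swd1, 1 in SPCC162.01c, 0 in ash2, 0 in SPAC18G6.13 and 0 in ssu72. Against the other strains this variance gave 0 higher in ppn1, 1 lower in smd3 and 2 lower in SPCC162.01c, and for the chromatin strains 4 higher and 1 lower. With probes measured on all 20 arrays, ctr1 had 5 higher, ssu72 1 and SPCC162.01c 1, and against the other strains ppn1 had 0 higher and SPCC162.01c 2 lower, while the chromatin strains had 1 lower. Centring each array gave 1 lower in ppn1, 1 higher in SPCC162.01c, 2 lower in SPCC162.01c against the other strains, and 1 lower for the chromatin strains. For the settings of this paragraph the share of all exon probes called was not taken, so the counts have no background beside them.

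Without the arrays of doubtful label the higher calls were 17 in ctr1, 14 in pht1, 13 in SPAC20H4.06c, 9 in ppn1, 8 in swd1, 6 in aar2 and 2 in ash2, and the lower calls 1 in aar2, 1 in pht1 and 1 in ppn1. That alternative also gave 1 higher in ctr1 against the other strains and 2 lower in the mean of all strains. With replicate 1 arrays only, an alternative chosen after seeing the data, 0 members were higher in the chromatin strains. Replicate 2 arrays include none of the chromatin strains.

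Leaving out 1 array at a time, the higher calls against wild type ranged from 0 to 16 in ctr1, 0 to 6 in smd3, 0 to 2 in SPAC20H4.06c, 0 to 1 in ppn1 and 0 to 1 in ssu72, and were 0 to 0 in SPAC18G6.13, as were its lower calls. Against the other strains they ranged from 0 to 2 higher in ctr1, 0 to 0 higher in ppn1, 0 to 4 lower in smd3 and 0 to 0 lower in SPAC18G6.13. The mean of all strains gave 22 to 29 higher and 4 to 6 lower, and the chromatin strains 0 to 4 higher and 0 to 1 lower. Shares of all exon probes were not taken for these counts either, and the cause of the changes was not tested. Signal over background was not used here, so dim members could not be set apart.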
